A study of Mus musculus with 6 samples.

Results

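The matrix genes Col1a2, Col15a1 and Col28a1, the receptor gene Tgfbr1 and the protease inhibitor gene Reck were followed through 6 mouse RNA-seq libraries. The 5 genes were taken by name from 53546 rows of counts per gene, and each was kept only if its row lay on its own GRCm38 exons. All 5 passed, with 100% of their bases on exons that GENCODE M21 gives to the same gene, where at least 90% was asked; they are 5 of 1740 such rows in the whole table. The libraries were labelled as 3 of intervertebral disc degeneration and 3 of wild type, all from C57BL/6 mice and from the intervertebral disc, the fibrous pad between vertebrae. The sample labels give no age, sex or way in which degeneration was brought about, and do not say whether a library is 1 animal, so a p-value here reflects how much these particular libraries varied, and that variation may be technical. The series' design text names 21-day-old mice but speaks of the retina.

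Collagens are chains whose Gly-X-Y repeat lets them wind into a helix; fibroblasts secrete the fibrillar type I collagen that carries load in the annulus of the disc, in tendon and in most scars. TGF-beta is the growth factor best known for driving fibroblasts to make that matrix: it is held latent outside cells, is freed in part by integrins, and binds a type II receptor that recruits and phosphorylates the type I receptor encoded by Tgfbr1, which in turn phosphorylates SMAD2 and SMAD3. RECK, anchored on the cell surface, restrains matrix metalloproteinases, the enzymes that cut collagen and other matrix.

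The library profiles did not follow the 2 labels. The 9 located markers of striated and heart muscle summed to 41441, 52.7 and 51.3 CPM (a row's count scaled to a common library total, the usual depth-scaled unit of RNA-seq) in degeneration 1 to 3, and to 38351, 40594 and 40380 CPM in wild type 1 to 3. Ckm, muscle creatine kinase, had 801, 0 and 0 CPM in degeneration 1 to 3, against 466, 585 and 603 CPM in wild type 1 to 3. Myh6, a myosin heavy chain of heart, had 18993, 2.03 and 1.60 CPM in degeneration 1 to 3, against 14664, 16395 and 17448 CPM in wild type 1 to 3. Myh2 and Myh4, myosin heavy chains of skeletal muscle, had at most 0.839 and 2.03 CPM in any library. The 7 located markers of kidney tubule summed to 49.1, 10607 and 8607 CPM in degeneration 1 to 3, against 38.7, 33.6 and 45.2 CPM in wild type 1 to 3, and Slc34a1 had no count in degeneration 1 or in any wild type library. The 9 located cartilage and nucleus pulposus markers summed to 22.04, 159.6 and 168 CPM in degeneration 1 to 3, against 32.4, 28.8 and 29.5 CPM in wild type 1 to 3. Krt8, also a gene of simple epithelia, made up 127 and 125 CPM of the sums of degeneration 2 and 3. Sox5, Chad, Cnmd, Col9a3 and Col11a2 had counts in every library. Col9a3 in degeneration 3 (0.641 CPM) was below that library's floor of 3 counts (0.962 CPM), and Col11a2 in degeneration 2 (0.869 CPM) was at its floor. Krt19 (over 156 bases) had no count in any library, and Noto (over 955 bases) had at most 0.321 CPM. Acan (over 1158 bases) had no count in degeneration 1 to 3 and in wild type 3. The marker genes of this paragraph were picked after their values were seen. Library totals were 3119215 to 4009562 counts, so that 3 counts, taken as the floor of detection, stood for 0.748 to 0.962 CPM. Results are therefore given with all 6 libraries, without degeneration 1, and without degeneration 2 and 3. In bulk RNA fewer cells of a type and less RNA per cell cannot be told apart.

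The Gly-X-Y repeat can be read in the coding exons of the 3 collagen genes, shown here because it sets them apart from Tgfbr1 and Reck. In each of these 54-base exons (GENCODE M21 transcripts, GRCm38, sense strand 5′ to 3′) the capitals mark the GGN codons, which encode glycine.
Col1a2, chr6:4515481-4515534, plus strand: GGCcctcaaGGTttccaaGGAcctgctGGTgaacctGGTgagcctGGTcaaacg
Col15a1, chr4:47292320-47292373, plus strand: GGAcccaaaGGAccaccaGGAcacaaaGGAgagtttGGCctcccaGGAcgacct
Col28a1, chr6:8166662-8166715, minus strand: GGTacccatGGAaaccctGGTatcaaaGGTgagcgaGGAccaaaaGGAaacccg
The repeat is of different length in the 3 genes. Col1a2 (chromosome 6, 4504814 to 4541544, plus strand) had 339 Gly-X-Y units without a break, and 45 of its 50 internal coding exons had a length that is a multiple of 9 bases, 24 of them of 54 bases. Col15a1 (chromosome 4, 47208161 to 47313167, plus strand) had at most 30 units without a break, and Col28a1 (chromosome 6, 7997808 to 8192617, minus strand) had at most 28. Of their internal exons, 11 of 38 in Col15a1 and 10 of 32 in Col28a1 were multiples of 9 bases. Tgfbr1 (chromosome 4, 47353222 to 47414931, plus strand) and Reck (chromosome 4, 43875530 to 43944806, plus strand) had at most 2 GGN codons in that spacing, and 1 of 7 and 3 of 19 internal exons of such a length.

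**Figure D1:**
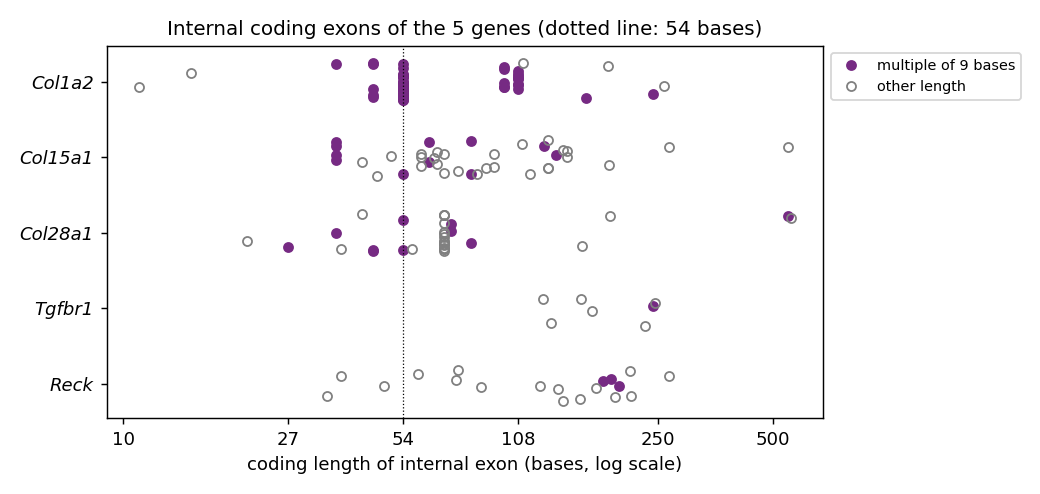
Each point is 1 internal coding exon of the transcript with the longest coding sequence, by its length in bases on a log scale, with filled points for multiples of 9 bases. The exons of Col1a2 stack at 54 bases (24 of 50), whereas those of Col15a1 are spread and Tgfbr1 has 7 longer ones. Many exons of Col28a1 stack at 69 bases, which is not a multiple of 9.

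Col1a2 encodes the alpha 2 chain of type I collagen, the main fibre of tendon, bone and annulus. It had 408, 317 and 353 CPM in degeneration 1 to 3, against 1749, 832 and 448 CPM in wild type 1 to 3. All 3 degeneration libraries lay below all 3 wild type libraries, and the wild type libraries spanned 3.90-fold among themselves against 1.29-fold in degeneration. The log2 fold change was -1.65 ± 0.54 (SE, n = 3 each) (adjusted p = 0.258 by edgeR's quasi-likelihood test with Benjamini-Hochberg adjustment over 14967 rows). It was -2.003 ± 0.41 without degeneration 1 (adjusted p = 0.00120, edgeR) and -1.21 ± 0.58 without degeneration 2 and 3 (adjusted p = 0.809, edgeR). Degeneration 1 (408 CPM) lay close to wild type 3 (448 CPM).

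Col15a1 encodes the chain of type XV collagen, a multiplexin found in the basement membrane zone of capillaries and of muscle fibres. It had 760.1, 231 and 248 CPM in degeneration 1 to 3, against 863, 868 and 870.2 CPM in wild type 1 to 3. By CPM the wild type libraries differed by no more than 1.009-fold, and degeneration 2 and 3 stood far below both them and degeneration 1. Scaled by the TMM factors of the test, given below with Tgfbr1, wild type 1 to 3 had 918, 986 and 958 CPM. Among the 168 rows on their own exons with a mean of at least 100 CPM, Col15a1 had the smallest ratio of highest to lowest wild type library, while 5 rows had a larger one than Col1a2 and the median was 1.26. These rankings, made on CPM without TMM scaling, were looked at after the values were seen. The log2 fold change of Col15a1 was -1.15 ± 0.63 (adjusted p = 0.365, edgeR, n = 3 each), and it was -2.28 ± 0.15 without degeneration 1 (adjusted p = 9.5e-08, edgeR). Without degeneration 2 and 3 it was -0.11 ± 0.18 (adjusted p = 0.915, edgeR), so that no difference between degeneration 1 and wild type was detectable.

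Col28a1 encodes type XXVIII collagen, a chain flanked by von Willebrand factor A domains and described mainly in peripheral nerve. It had 22, 3 and 4 counts in degeneration 1 to 3, against 79, 36 and 30 counts in wild type 1 to 3. This came to 6.93, 0.869 and 1.28 CPM in degeneration against 19.7, 10.1 and 9.04 CPM for wild type, with no overlap of the groups. The exact Poisson 95% interval of degeneration 2, at the floor of 3 counts, was 0.179 to 2.54 CPM, which covers counting error only. The intervals of degeneration 1 (4.34 to 10.5 CPM) and wild type 3 (6.10 to 12.9 CPM) overlapped. The log2 fold change was -2.19 ± 0.85 (adjusted p = 0.275, edgeR, n = 3 each), -3.98 ± 0.51 without degeneration 1 (adjusted p = 3.1e-05, edgeR) and -0.83 ± 0.49 without degeneration 2 and 3 (adjusted p = 0.809, edgeR).

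Tgfbr1, the type I receptor, had 163, 351 and 325 CPM in degeneration 1 to 3, against 215, 155 and 149 CPM in wild type 1 to 3. Degeneration 2 and 3 were higher than every other library, and degeneration 1 lay inside the wild type range. The log2 fold change was 0.44 ± 0.26 with all 6 libraries (adjusted p = 0.392, edgeR, n = 3 each) and 0.55 ± 0.16 without degeneration 1 (adjusted p = 0.0114, edgeR). Without degeneration 2 and 3 it was -0.0055 ± 0.23 (adjusted p = 0.997, edgeR). The test uses TMM factors, which correct library totals for composition and were 0.864, 1.23 and 1.25 in degeneration 1 to 3 and 0.940, 0.881 and 0.908 in wild type 1 to 3. Scaled by them, Tgfbr1 had 188, 285 and 261 CPM in degeneration against 228, 176 and 164 CPM in the wild type libraries. Tgfbr1 is the next annotated gene after Col15a1 on chromosome 4, with 40054 bases and no other gene between them, and the 2 neighbours differed in opposite directions in degeneration 2 and 3. Per kb of exon, Tgfbr1 stood at 0.208, 1.48 and 1.27 times the level of Col15a1 in degeneration 1 to 3 and at 0.242, 0.174 and 0.167 times in wild type 1 to 3.

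Reck had 53.5, 67.8 and 84.0 CPM in degeneration 1 to 3, against 39.9, 35.8 and 50.6 CPM in wild type 1 to 3. By CPM all 3 degeneration libraries were above all 3 wild type libraries; scaled by the TMM factors the groups overlapped, at 61.9, 55.0 and 67.3 CPM in degeneration and 42.5, 40.6 and 55.8 CPM in wild type. The log2 fold change was 0.47 ± 0.19 (adjusted p = 0.283, edgeR, n = 3 each). It was 0.43 ± 0.18 without degeneration 1 (adjusted p = 0.0670, edgeR) and 0.43 ± 0.24 without degeneration 2 and 3 (adjusted p = 0.809, edgeR). Reck thus had about the same estimate in each of these fits and passed the threshold in none of them.

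**Figure D2:**
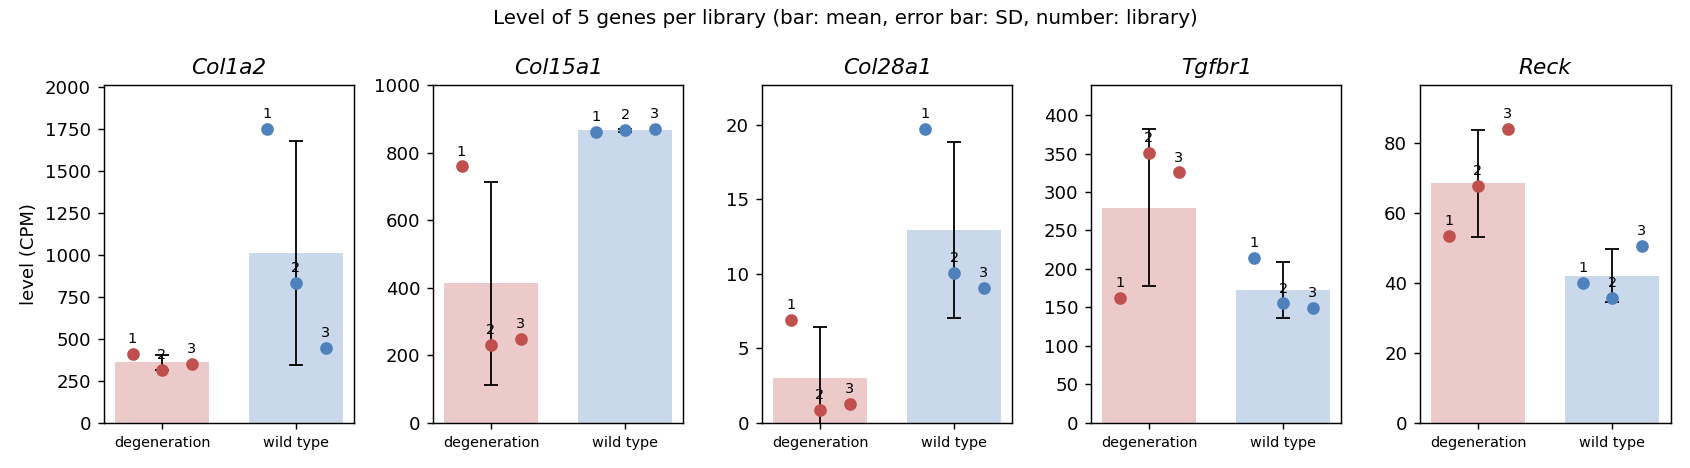
Level in CPM of each gene in each library (points, numbered by library), with the group mean (bar) and SD (error bar, its lower end not drawn below 0 for Col28a1). For the 3 collagen genes no degeneration point reaches the lowest wild type point, and Tgfbr1 in degeneration 1 (163 CPM) lies among the wild type points.

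None of the 5 genes passed the threshold of 0.05 with all 6 libraries, where edgeR called 0 of 14967 rows (0% of rows); 3 of the 5 (Col1a2, Col28a1 and Reck) had an unadjusted p under 0.05, as had 2596 rows (17.3%). DESeq2 called 946 of 18806 rows (5.03%; 4.48% higher and 0.548% lower) and 0 of the 5 genes, of which Col1a2 came nearest (adjusted p = 0.0551). In CPM the groups did not overlap for 3 genes that were lower, as for 8.65% of the rows tested, and for 1 that was higher, as for 11.2%. With TMM scaling they did not overlap for the same 3 that were lower (11.9% of rows) and for 0 that were higher (8.57%). Without degeneration 1 the 3 collagen genes fell and Tgfbr1 rose, in a fit that called 50.4% of rows (24.5% lower and 25.9% higher), so a call there is not particular to these genes. Without degeneration 2 and 3 none passed, and 2 of 15997 rows (0.0125%) were called; the lone degeneration library is assumed in that fit to vary like wild type.

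**Figure D3:**
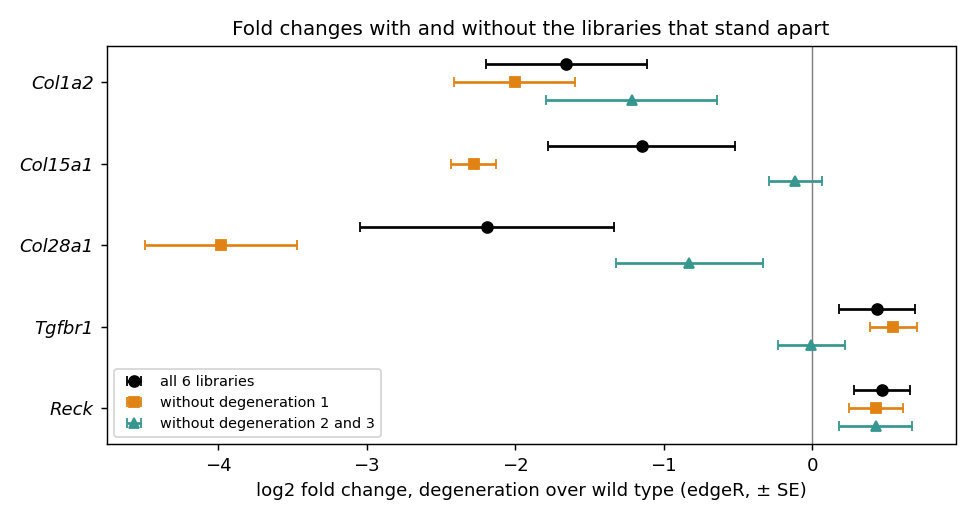
Log2 fold change of degeneration over wild type with its SE (edgeR) for each gene, with all 6 libraries (circles), without degeneration 1 (squares) and without degeneration 2 and 3 (triangles). Col15a1 runs between -2.28 and -0.11 with the libraries kept, whereas Reck stays between 0.43 and 0.47.

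Per kb of exon, a scale that depends on the exon length used for each gene, Col15a1 had the highest mean level in degeneration, at 65.1 ± 47.3 CPM per kb (SD, n = 3). Tgfbr1 followed at 42.8 ± 15.6, Col1a2 at 28.9 ± 3.70, Reck at 14.3 ± 3.19 and Col28a1 at 0.617 ± 0.690 CPM per kb, where Tgfbr1 overlapped both Col15a1 and Col1a2, and every Col15a1 value was above every Col1a2 value. In wild type the order of mean levels was Col15a1 (137 ± 0.615 CPM per kb), Col1a2 (81.3 ± 53.8), Tgfbr1 (26.5 ± 5.54), Reck (8.81 ± 1.60) and Col28a1 (2.64 ± 1.20), where Col1a2 overlapped Col15a1. The ratio of Col15a1 to Col1a2 per kb was 3.64, 1.42 and 1.38 in degeneration 1 to 3 and 0.966, 2.04 and 3.7998 in wild type 1 to 3. Degeneration 1 and wild type 3 had the highest ratios, and wild type 1 was the only library with more Col1a2 than Col15a1 per kb. The exon length used for Col1a2, 12426 bases, includes retained-intron transcripts of the annotation. Its level per kb may therefore be understated, and its place against Col15a1 and Tgfbr1 depends on that length. By counts, without a length, the ratio of Col15a1 to Col1a2 was 1.86, 0.728 and 0.705 in degeneration 1 to 3. In wild type 1 to 3 it was 0.493, 1.04 and 1.94.

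**Figure D4:**
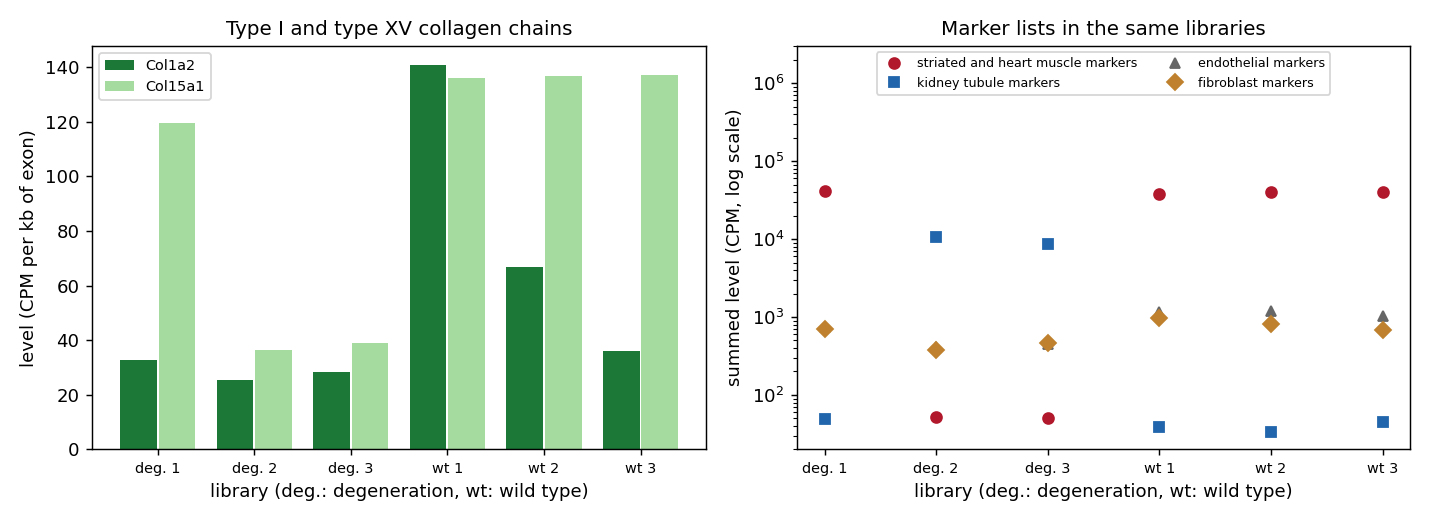
Left, level of Col1a2 and Col15a1 per kb of exon in each library. Right, summed CPM of 4 marker lists on a log scale in the same libraries. Both genes are higher in the 4 libraries with muscle markers at 38351 to 41441 CPM than in degeneration 2 and 3; among those 4, Col15a1 runs from 760.1 to 870.2 CPM and Col1a2 from 408 to 1749 CPM.

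The levels of markers of other cells stand beside these values. None of the markers that the count filter kept passed edgeR's test with all 6 libraries. The 7 located fibroblast markers summed to 709, 383 and 457 CPM in degeneration 1 to 3 and to 974.7, 816 and 682 CPM in wild type 1 to 3, with none at 0 counts. Fbln2, the matrix protein fibulin-2, had 75.9, 4.93 and 5.45 CPM in degeneration 1 to 3 against 226, 185 and 85.6 CPM in wild type 1 to 3 (-2.51 ± 1.25, adjusted p = 0.311, edgeR). Fstl1, a secreted follistatin-like protein, and Pdgfrb, a growth factor receptor of fibroblasts and pericytes, had log2 fold changes of -1.51 ± 0.53 and -0.59 ± 0.24 (adjusted p = 0.233 and 0.253, edgeR). Dcn, which encodes the collagen-binding proteoglycan decorin, had 250.3, 24.3 and 31.1 CPM in degeneration 1 to 3 against 259, 175 and 221 CPM in wild type 1 to 3. Pdgfra, a receptor of fibroblasts, had 169, 208 and 282 CPM in degeneration 1 to 3 against 180, 178 and 143 CPM in wild type 1 to 3. Dcn and Pdgfra were picked after their values were seen. The 6 located endothelial markers summed to 750.3, 416 and 447 CPM in degeneration 1 to 3 against 1163, 1201 and 1020 CPM in wild type 1 to 3, and the 6 macrophage markers to 174, 138 and 134 CPM against 296, 253 and 179 CPM. Of the macrophage markers 5 of 6 had a log2 fold change below 0. Csf1r went the other way, with 61.1, 114 and 96.8 CPM in degeneration 1 to 3 against 68.8, 64.9 and 65.1 CPM in wild type 1 to 3. The 3 smooth muscle and pericyte markers summed to 147, 131 and 124 CPM in degeneration 1 to 3 against 134, 213 and 156 CPM in wild type 1 to 3. The part of these cells, and of the muscle and kidney markers, in the differences of the 5 genes was not tested.

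The promoters of 4 of the genes (the first annotated start of Tgfbr1, which has 2) are shown because Col15a1 and Tgfbr1 are neighbours that differed in opposite directions, with Col1a2 and Reck beside them. Each window, from RefSeq on GRCm38.p6, which had an entry for all 5 genes, runs from 250 bases before to 50 after the start annotated there. That start can differ from the GENCODE start given above. The Col15a1 window ends at 47208061, before its GENCODE start at 47208161. The Col1a2 window begins at 4505368, after its GENCODE start at 4504814. The motifs found depend on the start used. Capitals mark 4 motifs searched on both strands: the GC box (GGGCGG or CCGCCC), the CCAAT box (CCAAT or ATTGG), the Smad box (CAGAC or GTCTG) and the TATA box (TATAAA or TTTATA).
Col1a2, chr6:4505368-4505667, plus strand: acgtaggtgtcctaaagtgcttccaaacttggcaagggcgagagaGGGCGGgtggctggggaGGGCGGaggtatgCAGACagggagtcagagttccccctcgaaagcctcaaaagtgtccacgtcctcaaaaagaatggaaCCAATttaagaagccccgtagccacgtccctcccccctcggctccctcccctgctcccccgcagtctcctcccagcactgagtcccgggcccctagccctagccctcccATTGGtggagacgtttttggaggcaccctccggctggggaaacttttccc
Col15a1, chr4:47207762-47208061, plus strand: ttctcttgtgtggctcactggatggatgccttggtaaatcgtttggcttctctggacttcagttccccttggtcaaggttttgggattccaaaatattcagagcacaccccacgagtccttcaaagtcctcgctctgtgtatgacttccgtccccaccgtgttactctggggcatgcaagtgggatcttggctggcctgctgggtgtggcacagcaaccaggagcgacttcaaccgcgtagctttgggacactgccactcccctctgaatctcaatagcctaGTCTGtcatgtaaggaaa
Tgfbr1, chr4:47352972-47353271, plus strand: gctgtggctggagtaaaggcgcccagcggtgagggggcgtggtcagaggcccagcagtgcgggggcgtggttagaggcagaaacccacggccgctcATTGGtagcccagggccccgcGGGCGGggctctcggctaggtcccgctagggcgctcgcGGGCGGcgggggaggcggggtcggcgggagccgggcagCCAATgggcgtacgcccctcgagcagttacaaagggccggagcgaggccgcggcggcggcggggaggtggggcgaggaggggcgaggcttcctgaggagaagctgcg
Reck, chr4:43875280-43875579, plus strand: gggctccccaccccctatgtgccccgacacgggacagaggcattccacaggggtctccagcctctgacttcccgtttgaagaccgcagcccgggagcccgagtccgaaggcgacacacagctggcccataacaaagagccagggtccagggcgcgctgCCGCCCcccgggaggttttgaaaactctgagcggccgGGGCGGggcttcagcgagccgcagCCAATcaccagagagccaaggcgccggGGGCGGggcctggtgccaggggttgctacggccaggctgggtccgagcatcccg
Col1a2 held 2 GC boxes, 2 CCAAT boxes and 1 Smad box, and Col15a1 held 1 Smad box alone. Tgfbr1 held 2 GC boxes and 2 CCAAT boxes, and Reck 3 GC boxes and 1 CCAAT box, with no Smad box in these 2 windows. The window at the second start of Tgfbr1 held 1 Smad box, 1 CCAAT box and no GC box, and that of Col28a1 held 1 Smad box and neither of the others. A TATA box was in none of these windows. Of 32851 promoter windows of this length, 35.7% held a GC box, 37.4% a CCAAT box, 49.6% a Smad box and 13.6% a TATA box. A match of letters is a description and no evidence of binding.

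Most other genes of these pathways can be read only where a row of another name lay over some of their exons, so the lists below are given by position, often from a small part of a gene (100 bases for Col24a1). The whole count of such a row was taken, so reads from parts of the row outside those exons may be included. With all 6 libraries 0 of 5434 loci passed (0%) in edgeR, 1064 had an unadjusted p under 0.05 (19.6%) and DESeq2 called 487 of 6505 (7.49%; 6.21% higher and 1.28% lower). The groups did not overlap in CPM for 9.39% of loci that were lower and 11.6% that were higher, and with TMM scaling for 11.8% and 9.9%. The median log2 fold change of all loci was -0.00025. Without degeneration 1, 26.8% of 5969 loci rose and 26.2% fell (53% in all), and without degeneration 2 and 3 edgeR called 1 of 5629 (0.0178%), which was a member of none of the lists that follow.

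Among fibrillar collagens, 8 of 11 listed genes were tested and 0 passed in edgeR, with 5 at an unadjusted p under 0.05 and 3 called lower by DESeq2. Their median log2 fold change was -1.59, and 6 of 8 were below 0. Col1a1, the partner chain of Col1a2 in type I collagen, had 128, 54.2 and 67.6 CPM in degeneration 1 to 3 against 629, 284 and 146 CPM in wild type 1 to 3 (log2 fold change -2.19 ± 0.68, adjusted p = 0.232, edgeR). As with Col1a2, all 3 degeneration libraries lay below wild type 3, itself the lowest of its group. Col5a1 and Col5a2, chains of the type V collagen that nucleates type I fibres, had log2 fold changes of -1.52 ± 0.40 and -1.32 ± 0.42 (adjusted p = 0.232 for both, edgeR). Without degeneration 1, 6 fell and 1 rose.

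Among the other collagens 13 of 33 were tested and 0 passed in edgeR, with 6 at an unadjusted p under 0.05, and DESeq2 called 2 higher and 1 lower. The median was 0.0037 and the members parted widely. Col4a3 and Col4a4, chains of the type IV collagen of the glomerular basement membrane, had 9.13, 357 and 409.7 CPM and 48.8, 488 and 591 CPM in degeneration 1 to 3, against 7.27 to 12.96 CPM and 44.5 to 53.1 CPM in wild type. Both were high in the same 2 libraries as the kidney tubule markers. Col4a2, a chain of the common type IV network, had 39.7, 38.5 and 34.3 CPM in degeneration 1 to 3 against 70.1, 57.9 and 57.3 CPM in wild type 1 to 3 (-0.91 ± 0.21 on the log2 scale, adjusted p = 0.232, edgeR). Without degeneration 1, 3 rose and 6 fell, Col15a1 and Col28a1 among those that fell.

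Of the genes that process and crosslink collagen, 10 of 30 were tested, 0 passed in edgeR (4 at an unadjusted p under 0.05) and DESeq2 called 0. All 10 were below 0, with a median of -0.96, and 8 fell without degeneration 1. Adamts2, the protease that trims the amino end of procollagen, had 15.7, 4.64 and 7.69 CPM in degeneration 1 to 3 against 36.4, 29.4 and 19.9 CPM in wild type 1 to 3 (-1.73 ± 0.58, adjusted p = 0.233, edgeR). P3h3, a prolyl 3-hydroxylase, and Loxl3, a lysyl oxidase of crosslinking, had log2 fold changes of -0.67 ± 0.18 and -0.88 ± 0.27 (adjusted p = 0.232 for both, edgeR).

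Among TGF-beta ligands and the proteins that hold or free them, 9 of 18 were tested and 0 passed in edgeR, with 2 at an unadjusted p under 0.05 and 1 called higher by DESeq2. The median was -0.12. The integrin chains Itgb8 and Itgav, which together free latent TGF-beta, stood at 4.41, 145 and 119.6 CPM and at 82.2, 384 and 355 CPM in degeneration 1 to 3, against 2.24 to 3.99 CPM and 64.3 to 102 CPM in wild type. Both are high in the 2 libraries that carry kidney markers, as Tgfbr1 is. Ltbp2, a latent TGF-beta binding protein by family, had a log2 fold change of -1.97 ± 0.91 (adjusted p = 0.288, edgeR). Without degeneration 1, 10 were tested, of which 2 rose and 4 fell.

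Of the receptors 4 of 13 were tested and 0 passed in edgeR, with 2 at an unadjusted p under 0.05, and DESeq2 called 1 higher and 1 lower. Besides Tgfbr1 these were Acvr1b, Eng and Bmpr2, and the median was 0.098. Acvr1b, the activin type I receptor that also signals through SMAD2 and SMAD3, had 24.2, 42.9 and 42.6 CPM in degeneration 1 to 3 against 16.2, 17.1 and 19.9 CPM in wild type 1 to 3 (0.79 ± 0.19, adjusted p = 0.232, edgeR). Its groups did not overlap, in contrast to those of Tgfbr1. Eng, the endothelial co-receptor endoglin, had a log2 fold change of -0.88 ± 0.23 (adjusted p = 0.232, edgeR). Of the signal transducers 5 of 16 were tested and 0 passed in edgeR, with 0 at an unadjusted p under 0.05 and 0 called by DESeq2. Their median was 0.024, with Fkbp1a, which binds the resting type I receptor, at -0.62 ± 0.28 (adjusted p = 0.286, edgeR) and Skil and Zfyve9 at -0.23 ± 0.16 and 0.045 ± 0.14 (adjusted p = 0.437 and 0.852, edgeR).

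The list of TGF-beta responsive matrix genes holds genes that TGF-beta is known to induce, among them Cdkn1a, which is not a matrix gene. Of the 14 listed, 5 were tested, of which 0 passed in edgeR, 4 had an unadjusted p under 0.05 and 1 was called lower by DESeq2. All 5 were below 0, with a median log2 fold change of -2.33, and all 5 fell without degeneration 1. Postn, the matricellular protein periostin, had 22.04, 2.03 and 3.21 CPM in degeneration 1 to 3 against 209, 56.8 and 22.6 CPM in wild type 1 to 3 (-3.42 ± 1.29, adjusted p = 0.242, edgeR). Fn1, fibronectin, had 160, 178 and 189 CPM in degeneration 1 to 3 against 551, 275 and 202 CPM in wild type 1 to 3 (-1.17 ± 0.37, adjusted p = 0.232, edgeR), and Cdkn1a, a cell cycle inhibitor, had a log2 fold change of -2.74 ± 0.76 (adjusted p = 0.232, edgeR). In Postn and Fn1, as in Col1a2, wild type 1 was highest and every degeneration library lay below wild type 3.

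Of matrix proteases and their inhibitors 9 of 28 were tested and 0 passed in edgeR, with 2 at an unadjusted p under 0.05 and 2 called lower by DESeq2. The median was -0.36 and 6 of 9 were below 0, with Reck among those above it. Mmp3, stromelysin, had 4.72, 0 and 0.962 CPM in degeneration 1 to 3 against 25.7, 22.1 and 7.54 CPM in wild type 1 to 3 (-3.38 ± 1.12, adjusted p = 0.233, edgeR). The count of 0 in degeneration 2 is below that library's floor of 3 counts, 0.869 CPM. Adamts9, a protease of proteoglycans, had a log2 fold change of -0.80 ± 0.27 (adjusted p = 0.233, edgeR). Without degeneration 1, 10 were tested, 6 fell and 0 rose.

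**Figure D5:**
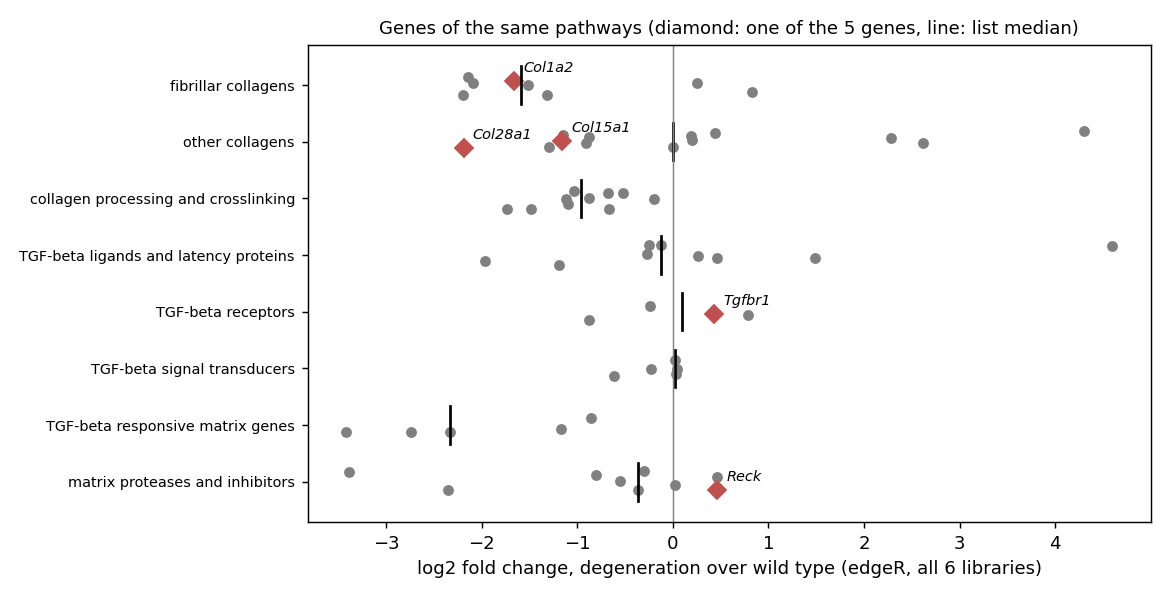
Log2 fold change of degeneration over wild type (edgeR, all 6 libraries) for each tested gene of 8 lists, by position, with the 5 genes as diamonds and the list median as a line. The medians run from -2.33 for TGF-beta responsive matrix genes to 0.098 for TGF-beta receptors, and none of the genes passed the threshold.

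Of the marker lists, 0 members passed in edgeR with all 6 libraries: 0 of 7 fibroblast, 4 annulus and tendon fibroblast, 4 cartilage and nucleus pulposus, 7 muscle, 3 kidney tubule, 6 endothelial, 6 macrophage and 3 smooth muscle markers tested. Their medians, in that order, were -1.09, 0.14, 0.0030, -1.29, 6.08, -1.05, -1.29 and -0.52, and 2, 1, 1, 0, 3, 4, 2 and 0 of them had an unadjusted p under 0.05. The count filter of edgeR kept 3 of the 7 located kidney tubule markers, so the others had no edgeR test with all 6 libraries. DESeq2 called 1 of 5 annulus markers and 1 of 6 endothelial markers lower. It called 1 of 6 cartilage and 7 of 7 kidney tubule markers higher, and none of the 4 muscle markers it tested. Cilp, a matrix protein of cartilage and fibrous tissue, had 15.7, 4.35 and 4.49 CPM in degeneration 1 to 3 against 159, 62.1 and 19.0 CPM in wild type 1 to 3. It was the only 1 of the 4 annulus and tendon fibroblast markers tested with a log2 fold change below 0 (-3.37 ± 1.00). Col12a1 and Cilp2, of the same list, stood at 0.44 ± 0.38 and 0.28 ± 0.33.

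The genes most like each member were sought among 402 other rows on their own exons with a mean of at least 10 CPM, by the root mean square difference of gene-centred log2(CPM + 1) over the 6 libraries. Nearest to Col15a1 were Zeb1 (0.052), Runx1t1 (0.078) and Gng11 (0.10), against a median of 1.02. Nearest to Col1a2 was Gm43921 (0.27), an unclassified transcript on the same strand inside the Col1a2 span, followed by Glipr2 (0.39) and Spaar (0.46), against a median of 0.970. Col28a1 was nearest to Jcad, Cav1 and Foxp2 (0.42 to 0.43, median 1.38), Tgfbr1 to Ccnc, Cpne3 and Mpp7 (0.10 to 0.11, median 0.515) and Reck to Colec12, 9130002K18Rik and Dpy19l4 (0.16 to 0.17, median 0.498). Among themselves, Tgfbr1 and Reck (0.34) and Col15a1 and Col28a1 (0.50) were closest, and Col1a2 stood at 0.73 from both other collagen genes. These distances rest on 6 libraries and are descriptions.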

How the data were processed

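Counts per gene name were deposited for 6 mouse libraries. Per the file headers, the authors made the counts with featureCounts 2.0.1 from 1 alignment per library, as pairs with both ends mapped, without chimeric pairs and without a strand option, so overlapping antisense reads cannot be told apart (14 bases of the Col15a1 row also lie on Gm12426). Bowtie 0.12.2, mm8 and mm9 appear, with no step attached, per the submitters' processing notes; the build of the alignment is not given in the sources used here. A series table with 12 value columns, whose names match no label, was not used.

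Rows were placed on GENCODE M21 exons (GRCm38; bedtools 2.31.1, Python 3.11.15). A row counted as lying on its own gene with at least 90% of its length there. Otherwise it went, with its whole count, to the gene with 80% or more (and no fewer than 100) of its exonic bases. Rows of 1 gene were summed (10913 loci). CPM used library totals. The test was edgeR 4.0.16 (R 4.3.3), quasi-likelihood, TMM, filterByExpr, no covariate, threshold 0.05, and DESeq2 1.42.0 was an alternative. Only the edgeR test was tried on simulated counts. Their dispersion was that of the wild type libraries, so the trial does not cover the spread among the degeneration libraries. SEs were derived from the test statistic. Named genes were the 5 members, up to 3 per list with the smallest p and a mean of at least 5 CPM, and the 3 nearest rows per member. Ckm, Myh6, Myh2, Myh4, Slc34a1, Krt8, Krt19, Noto, Acan, Cnmd, Col9a3, Col11a2, Dcn, Pdgfra, Csf1r, Bmpr2, Col24a1 and Bgn fall outside this rule and were chosen after their values were seen. The members and lists were chosen with earlier results of these data known. Alternatives without TMM and without degeneration 2 and 3 were added after seeing the data. No pair of libraries of a group agreed within sampling noise (chi-square per degree of freedom at least 3.75). With library totals between 3119215 and 4009562, the floor (3 counts) is 0.748 to 0.962 CPM and, like the intervals, covers counting error only.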

Additional observations from a re-analysis of the deposited data

How the results depend on the processing

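With 1 library left out, the calls on rows ran from 0 to 8703 and on loci from 0 to 3162, the high value each time without degeneration 1. Without degeneration 2 and 3 there were 2 and 1, and DESeq2 called 946 rows and 487 loci; the cause of these differences was not tested. The other settings gave 0. With 1 library left out, log2 fold changes ran from -2.04 to -1.08 for Col1a2, -2.28 to -0.81 for Col15a1, -3.98 to -1.68 for Col28a1, 0.29 to 0.55 for Tgfbr1 and 0.34 to 0.58 for Reck. All but 1 of the 75 alternative values kept the sign; Tgfbr1 was -0.0055 without degeneration 2 and 3. Over all settings the adjusted p of Col1a2 reached 0.00120, of Col15a1 9.5e-08, of Col28a1 3.1e-05 and of Tgfbr1 0.0114, each without degeneration 1, and of Reck 0.0670. Without TMM the median of all rows moved to 0.29, and Tgfbr1 and Reck stood at 0.77 each.

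The replicate numbers did not pair the libraries: same-numbered libraries deviated from their group means with r = -0.076, 0.10 and -0.12 across rows. With the replicate number as a block, 0 rows and 0 loci were called, and the log2 fold changes were -1.49 for Col1a2, -1.54 for Col15a1, -2.59 for Col28a1, 0.43 for Tgfbr1 and 0.48 for Reck. At 3 and 4 counts in degeneration 2 and 3, depth limits Col28a1 most.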

Other observations

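The spread among the wild type libraries differed between the gene lists; this was looked at after the values were seen and is given as values, with no test. Among loci with a mean of at least 5 CPM, wild type 1 was highest and wild type 3 lowest in 20.9% of 5229. That order was found in 5 of 7 fibrillar collagens, 4 of 5 TGF-beta responsive matrix genes, 6 of 10 processing and crosslinking genes, 5 of 8 proteases and inhibitors, 6 of 12 other collagens, 3 of 9 ligands and latency proteins, 2 of 4 receptors and 2 of 5 transducers. Among markers it was found in 3 of 7 fibroblast, 3 of 4 annulus and tendon, 0 of 3 cartilage, 0 of 7 muscle, 1 of 7 kidney tubule, 2 of 6 endothelial, 2 of 5 macrophage and 0 of 3 smooth muscle genes. The highest wild type library was over 2 times the lowest in 11.2% of these loci, in 5 of 7 fibrillar collagens and 5 of 5 responsive matrix genes, but in 2 of 12 other collagens and 2 of 7 fibroblast markers. Bgn, the proteoglycan biglycan, had 640.1, 694 and 750.8 CPM in degeneration 1 to 3 and 1526, 1007 and 732 CPM in wild type 1 to 3. Its groups thus overlapped, with degeneration 3 above wild type 3.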
